A study of Bos taurus with 129 samples.

Results

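Interferon-gamma response and guanylate-binding genes were followed in bovine whole blood. The set was 9 gene symbols, GBP2, GBP4, GBP5, GBP6, IRF1, IDO1, IFNG, CXCL9 and SOCS1, looked up by symbol in a count table of 32395 genes. The table held 8 of the 9 and no entry named GBP2, which was not analysed here. All 8 were among the 18937 genes that passed the filter on low counts. The set was chosen by its levels in these same libraries, as counts scaled to library size (CPM) by day, disease label and supplement. The levels and differences given for its members are therefore descriptions. Where a fit is said to call a member, the call describes that fit and supports nothing, because the selection used the same values.

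Interferon-gamma is the cytokine that activated T cells and natural killer cells release to arm macrophages and other cells against intracellular microbes. Its receptor signals through the kinases JAK1 and JAK2, and a first set of genes including IRF1 is switched on. IRF1 then helps to raise the guanylate-binding proteins, GTPases that attack membranes around bacteria and parasites inside the cell, the enzyme IDO1, which breaks down tryptophan, and the chemokine CXCL9, which draws in activated T cells. SOCS1 is induced by the same signal and blocks JAK kinases, closing the loop. Several of these genes also respond to type I interferons, the cytokines of the early antiviral response.

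Blood came from 26 crossbred beef steers bought through an order-buyer, hauled by truck and followed for 60 days. The 3 supplements were AAC, copper, cobalt, manganese and zinc complexed with amino acids; INR, the same elements as sulfates; and COMBO, the complexed form plus an oral mineral and vitamin drench, given before transport, at enrolment and again whenever a COMBO animal was treated for illness. By the labels, 4 AAC, 4 COMBO and 4 INR animals were disease No, and 4 AAC, 3 COMBO and 7 INR animals were disease Yes. The study concerned bovine respiratory disease, and the labels give neither the day of diagnosis nor that of any treatment, so a day 0 library of an animal labelled Yes cannot be placed before or after illness. Every steer was transported, dewormed with doramectin and vaccinated against respiratory viruses on day 0 and again between the draws of days 13 and 28, and no group went without minerals, so a change with day cannot be told apart from time since transport, vaccination or growth. COMBO animals labelled No came from pen 5 and those labelled Yes from pen 6, so in COMBO the label and the pen cannot be told apart. INR pen 7 held only animals labelled Yes. Supplements were given by pen: AAC in pens 2 and 8, COMBO in 5 and 6, and INR in 3, 4 and 7. A difference between supplements thus cannot be told apart from one between pens, and the fits hold no pen term unless one is named.

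Draws were made on day 0 and again on days 13, 28, 45 and 60, giving 59 libraries labelled No and 70 labelled Yes, with AAC animal 48 missing on day 13. Library totals ran from 31613545 to 61692136 counts, with a median of 44268685. A count of 3, taken as the floor in a library, was worth 0.0486 to 0.0949 CPM. Whole blood mixes leukocyte types, and in such samples fewer cells of a type cannot be told apart from less RNA per cell. Of the markers used to check the tissue, T cell genes summed to between 361.8 and 1415 CPM, monocyte genes to between 780.9 and 9335 CPM and neutrophil genes to between 181.7 and 4395 CPM, so all 3 cell types were present in every library. The 5 libraries of 1 animal are repeated draws and not independent animals.

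IFNG, the ligand, was close to the floor in blood. Its level ran from 0 to 0.513 CPM with a median of 0.207 CPM, a median of 9 counts per library. It was at or under 3 counts in 18 libraries and at 0 in 9. Of those 9, 7 belonged to the 15 libraries of the 3 COMBO animals labelled Yes, 1 to AAC animal 46, labelled No, and 1 to INR animal 43, labelled Yes. The median of the COMBO Yes libraries was 0.0702 CPM, against 0.258 CPM in the 20 COMBO No libraries. COMBO animals 18 and 54 each had a median of 0 CPM over 5 days, while COMBO animal 16 ranged from 0 to 0.380 CPM. The 2 highest libraries both came from INR animal 50, labelled No, at 0.513 CPM on day 28 and 0.511 CPM on day 0. Animals differed in IFNG more than days did: the animal carried 52.4% of the variation in log2 CPM and the day 3.10%, where 19.5% and 3.13% are their shares of the degrees of freedom.

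IRF1, the transcription factor, was expressed in every library between 244.4 and 993.5 CPM, with a median of 420.6 CPM. On day 0 the 12 No libraries ran from 300.7 through a median of 408.0 to 498.8 CPM, and the 14 Yes libraries from 244.4 through 449.3 to 688.3 CPM. Day 45 stood above the other days in both label groups. The No libraries then ran from 362.4 through 533.7 to 789.0 CPM and the Yes libraries from 346.6 through 555.8 to 993.5 CPM. By day 60 the medians were 415.8 and 445.2 CPM and no library exceeded 546.0 CPM. IRF1 had the smallest spread of the 8 genes, with an SD of 0.34 on the log2 CPM scale within combinations of supplement, label and day.

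GBP4 and GBP5, the 2 guanylate-binding genes with ample counts, had single libraries far above their medians. GBP4 ran from 7.30 through a median of 29.1 to 234.3 CPM and GBP5 from 8.86 through 19.7 to 182.6 CPM. The lowest GBP4 library held 306 counts. On day 0 the GBP4 values of the No animals ran from 18.6 through 26.7 to 68.02 CPM and those of the Yes animals from 8.66 through 43.2 to 234.3 CPM. The GBP5 values on that day ran from 11.2 through 21.04 to 35.7 CPM in No and from 8.86 through 19.2 to 182.6 CPM in Yes, so the Yes group held both the lowest and the highest value of each gene. By day 60 no library exceeded 54.3 CPM for GBP4 or 36.25 CPM for GBP5. Guanylate-binding genes form a cluster of near-identical copies, and reads may have been divided between them during counting.

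GBP6 was scarce, with a median of 0.115 CPM and a highest value of 0.987 CPM. It was at or under 3 counts in 54 libraries and at 0 in 4, and its median was 5 counts. The current bovine annotation gives the name GBP6 as a synonym of more than 1 locus, so which copy the entry measures is uncertain. Its medians from day 0 to day 60 were 0.121, 0.185, 0.0889, 0.135 and 0.0382 CPM over all animals.

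IDO1, the tryptophan-degrading enzyme, ran from 113.5 through a median of 259.5 to 853.2 CPM. The animal carried 44.6% of its variation and the supplement 10.04%, the largest supplement share among the 8 genes. COMBO animal 42, labelled No, had 657.4, 401.7, 329.5, 383.8 and 829.8 CPM from day 0 to day 60, the highest of the 4 COMBO No animals on days 0, 45 and 60 and not on days 13 and 28. The highest library was COMBO animal 16, labelled Yes, on day 13, and on that day the COMBO group as a whole spanned 113.5 to 853.2 CPM.

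CXCL9, the T cell-attracting chemokine, was barely detected: 50 libraries were at 0 and 71 were at or under 3 counts. Its highest value, 0.452 CPM, was in INR animal 29, labelled Yes, on day 45. Fold changes of a gene at this level depend on the prior count of the fit, and none is given here.

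SOCS1, the feedback inhibitor, was highest on day 0. On day 0 the No animals ran from 4.16 through a median of 14.28 to 36.9 CPM and the Yes animals from 6.70 through 16.6 to 32.9 CPM. On day 13 the medians were 6.96 CPM in No and 9.93 CPM in Yes, and on day 28 they were 6.96 and 6.21 CPM. The medians on day 45 were 8.01 and 8.72 CPM and on day 60 7.03 and 7.68 CPM. The first 5 of the 6 highest SOCS1 libraries were all from day 0, led by COMBO animal 6, labelled No, at 36.9 CPM. The day carried 23.7% of the variation in SOCS1, the largest share of day among the 8 genes.

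Each day was then compared with the previous one to ask how these genes moved from arrival onward. The quasi-likelihood test of edgeR was fitted to all 18937 genes, and a gene was called at a false discovery rate (FDR) below 0.10. Between days 0 and 13, 21.1% of all genes were called in either direction, and the shares for days 13 to 28, 28 to 45 and 45 to 60 were 0.164%, 13.7% and 1.66%. Of the 8 members, 1, 0, 1 and 2 were called at those steps, a count from the same levels the set was selected on, from which nothing is read. The median log2 fold change of the members was -0.09, -0.23, 0.36 and -0.47 at the 4 steps, beside 0.00, 0.00, -0.00 and -0.00 over all genes tested. The libraries of days 13, 28 and 45 each enter a pair of neighbouring steps, so these steps are not independent.

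SOCS1 was lower on day 13 than on day 0 and was the member called there. Mean CPM was 9.85 against 16.2, with a log2 fold change of -0.70 (SE 0.19), and SOCS1 was lower in 22 of 25 animals. The ranges of both days overlapped. It was lower again on day 28, by a log2 fold change of -0.50 (SE 0.18), in 17 of 25 animals, and higher on day 45 by 0.45 (SE 0.18) in 18 of 26 animals. Neither of those steps was called. With the animal as a block, the day 45 step of SOCS1 was called too, with a log2 fold change of 0.45.

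IRF1 was the member called higher on day 45 than on day 28. Its mean was 563.0 against 437.0 CPM, a log2 fold change of 0.37 (SE 0.10), and 22 of 26 animals were higher. The change came back by day 60, when the mean was 435.9 CPM, the log2 fold change -0.36 (SE 0.10), and 19 of 26 animals were lower. Up to day 28 it stayed near its day 0 level, with log2 fold changes of 0.08 (SE 0.10) and -0.05 (SE 0.10). IDO1 was higher on day 45 than on day 28 in 20 of 26 animals, with a log2 fold change of 0.36 (SE 0.15) that was called with the animal as a block (0.35) and not without it.

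Of the guanylate-binding genes, GBP6 was the one called between days 45 and 60. GBP5 had a mean of 17.8 against 28.3 CPM, a log2 fold change of -0.70 (SE 0.22), and was lower in 20 of 26 animals; it was called with the animal as a block, at -0.57, and not without it. GBP4 had a log2 fold change of -0.57 (SE 0.25), was lower in 15 and higher in 11 of 26 animals, and was not called. GBP6 had a log2 fold change of -1.61 (SE 0.41) and was lower in 19 of 26 animals, from values near the floor, with means of 0.0616 against 0.166 CPM. IFNG moved the other way at this step, with means of 0.231 against 0.190 CPM and a log2 fold change of 0.29 (SE 0.27) that was not called. CXCL9 was at 0 in 8 of 26 libraries on day 45 and in 10 of 26 on day 60.

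**Figure D1:**
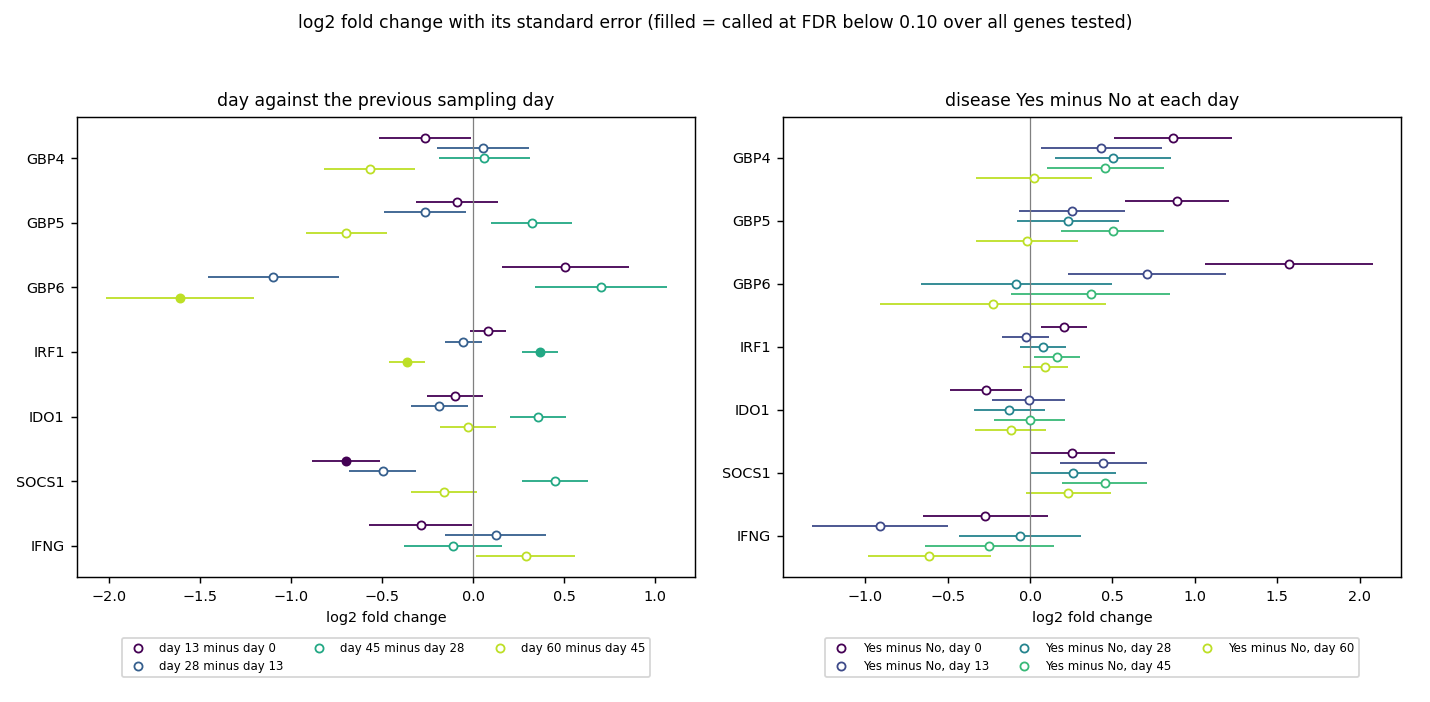
Log2 fold changes (points) with standard errors (bars) of 7 genes, each day against the previous one and disease Yes against No on each day; filled points were called at an FDR below 0.10. The 4 filled points are SOCS1 on day 13 (-0.70), IRF1 on days 45 (0.37) and 60 (-0.36) and GBP6 on day 60 (-1.61), and none lies in the panel of the labels. The fill describes the fit and supports nothing, since the genes were selected on these levels.

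Markers of blood cell types also moved over these days, which may be a change in cells or in RNA per cell. At the first step, 3 of 5 monocyte, 2 of 4 neutrophil and 1 of 5 natural killer and cytotoxic markers were called lower, as were 2 of 14 type I interferon-stimulated genes, while 5 of 5 erythroid, 2 of 3 eosinophil and basophil and 1 of 4 platelet markers were called higher. Of T cell and B cell markers, 0 of 5 and 0 of 4 were called, beside 21.1% of all genes at this step. The summed eosinophil and basophil level went the other way from its calls, with medians of 428.4 CPM on day 0 and 385.9 CPM on day 13. The median summed neutrophil level was 749.7 CPM on day 0 and 577.0 CPM on day 13, and that of monocytes 3340 and 2418 CPM. The erythroid sum was 138.2 CPM on day 0, 2461 on day 13, 941.9 on day 28, 1844 on day 45 and 840.2 on day 60. It was thus higher on days 13 and 45 and lower on days 28 and 60, and 1 erythroid marker was called higher at the day 45 step and 1 lower at the day 60 step. Of the defining markers, CPA3, a mast cell and basophil protease, SLC4A1, the red cell anion exchanger, OAS1X and IFI44 were at 0 in some libraries. The part of these shifts in the changes of SOCS1, IRF1 and the guanylate-binding genes was not tested.

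Disease Yes was compared with No on each day to ask whether the labelled animals differed at the same draw. No member was called on any day, 0 of 40 comparisons, where the shares of all genes called were 0.0158%, 0%, 0.00528%, 0% and 0.00528% from day 0 to day 60. DESeq2 and limma voom also called 0 of the 40. On day 0 GBP5 had a log2 fold change of 0.89 (SE 0.31) and GBP4 of 0.87 (SE 0.36), both higher in Yes, yet the GBP5 median was lower in Yes than in No, and the ranges overlapped. GBP6 had a log2 fold change of 1.57 (SE 0.51), with medians of 0.155 CPM in Yes and 0.0924 CPM in No, near the floor. On day 60 the log2 fold changes of GBP4 and GBP5 were 0.02 (SE 0.35) and -0.02 (SE 0.31).

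IRF1 differed by a log2 fold change between -0.03 and 0.21 over the 5 days, with an SE of 0.14 each day. IDO1 lay between -0.27 and -0.00 (SE 0.22), and SOCS1 between 0.23 and 0.45 (SE 0.26 to 0.27), and was called on none; its day 28 median was lower in Yes, and within COMBO its log2 fold change was negative on 4 of 5 days, from -0.47 to 0.36. IFNG had log2 fold changes between -0.91 and -0.06. On day 28 its median was higher in Yes, at 0.224 against 0.176 CPM. On day 13 the log2 fold change was -0.91 (SE 0.41), with medians of 0.1398 CPM in Yes and 0.2316 CPM in No. Within AAC the IFNG log2 fold changes were positive on all 5 days, from 0.09 to 1.15. Without COMBO animal 54 the day 13 value was -2.36, and fold changes of a gene with libraries at 0 depend on the prior count. Whether the day steps differed between labels was tested as an interaction, for which 0% of all genes and 0 of 32 member comparisons were called at any step.

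The highest GBP4 and GBP5 values of day 0 were found in COMBO. The 3 COMBO animals labelled Yes, numbers 16, 18 and 54, had GBP4 at 14.1, 133.7 and 234.3 CPM and GBP5 at 10.4, 182.6 and 89.8 CPM. The 4 labelled No, numbers 3, 6, 42 and 57, had GBP4 at 18.6, 29.1, 41.4 and 24.2 CPM and GBP5 at 26.5, 22.6, 21.9 and 19.7 CPM. Animals 18 and 54 thus lay above all 4, and animal 16 below all 4, for both genes. The log2 fold change of Yes over No on day 0 in COMBO was 2.17 (SE 0.67) for GBP4 and 2.05 (SE 0.59) for GBP5, in a contrast looked at after these values were known, in which 5.54% of all genes were called. In AAC it was -0.07 (SE 0.62) and -0.11 (SE 0.54), with 3.08% of all genes called, and in INR 0.51 (SE 0.56) and 0.73 (SE 0.50), with 0.00528% called. Restricted to pens that held both labels, with pen and day as terms, the day 0 log2 fold change was -0.18 for GBP4 and -0.05 for GBP5. Their SE is not given here, so no direction is read from them. This subset leaves out INR pen 7 and every COMBO animal, and so animals 18 and 54.

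The COMBO Yes animals were high on different days. Animal 54 had GBP5 at 89.8, 15.29, 20.2, 22.9 and 14.2 CPM on the 5 days, high on day 0 and not after. Animal 18 had 182.6, 20.002, 56.3, 86.5 and 20.5 CPM, with high values on days 0, 28 and 45. Animal 16 had 10.4, 112.9, 16.3, 12.013 and 12.002 CPM, high on day 13 and not on the other days. GBP4 in animal 54 was 234.3, 34.1, 41.1, 33.9 and 32.7 CPM, and in animal 18 it was 133.7, 19.5, 69.2, 74.2 and 11.4 CPM. Outside COMBO, AAC animal 31, labelled Yes, had GBP4 at 34.6, 77.996, 119.5, 130.8 and 49.46 CPM, and INR animal 29, labelled Yes, had 84.195, 94.8, 97.3, 142.4 and 53.7 CPM. The animal carried 50.49% of the variation in GBP4 and 33.1% of that in GBP5.

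**Figure D2:**
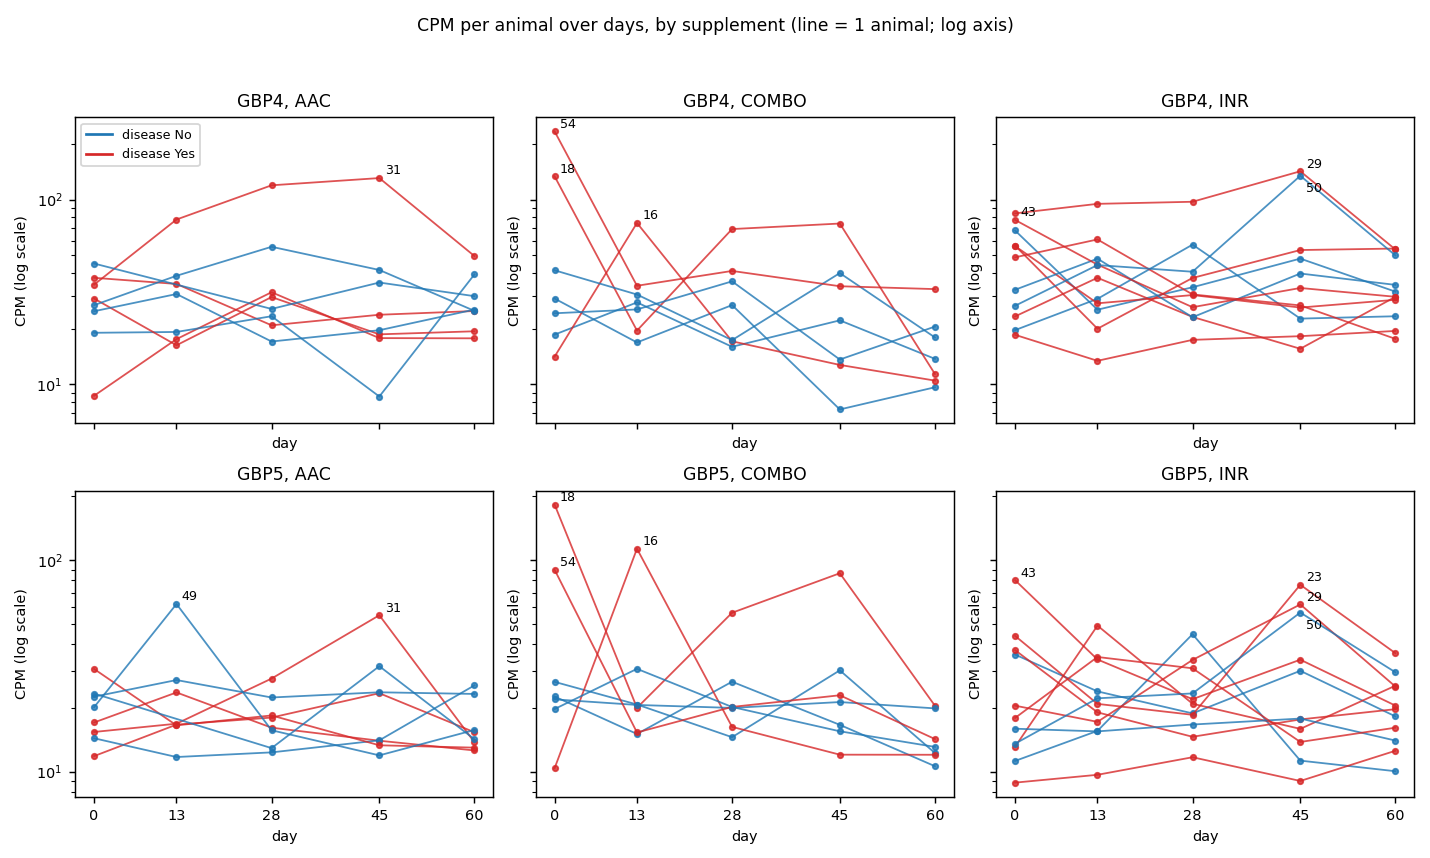
GBP4 and GBP5 CPM on a log axis over the 5 days, each line an animal, with a panel for each supplement and the lines drawn by label. COMBO animals 18 and 54 start at 133.7 and 234.3 CPM of GBP4, animal 18 returns to 69.2 and 74.2 CPM on days 28 and 45, and AAC animal 31 reaches 130.8 CPM on day 45; AAC animal 48 has no day 13 point.

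The 3 supplements, each given to separate pens, were compared in pairs on each day to ask whether these levels went with the supplement. No member was called by edgeR or limma voom in any of 120 comparisons. DESeq2 called 1, GBP5 for AAC against COMBO on day 0, where it called 426 of 17085 genes. For AAC against COMBO the shares of all genes called by edgeR were 0.565%, 0.929%, 0.0317%, 0% and 0% from day 0 to day 60, for AAC against INR 0%, 0.0422%, 0.0106%, 0% and 0%, and for COMBO against INR 0%, 0%, 0%, 0% and 0.00528%. On day 0, AAC against COMBO had a median log2 fold change over the 8 members of -0.93, beside 0.01 over all genes tested, and 7 of 8 members were lower in AAC. The exception was IFNG, at 0.63. The 7 include GBP6, near the floor, and CXCL9, at 0 in 15 of 26 libraries that day. The members were selected on these levels and several vary together, so nothing is read from the count. At day 0 the feed supplements had only begun, and the COMBO animals had had the drench before transport.

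SOCS1 on day 0 ran from 13.9 through 21.2 to 36.9 CPM in 7 COMBO animals, from 4.16 through 11.6 to 26.7 CPM in 8 AAC animals and from 5.82 through 11.99 to 32.9 CPM in 11 INR animals, so the groups overlapped. The log2 fold change of AAC over COMBO was -0.76 (SE 0.33) and that of COMBO over INR 0.80 (SE 0.31). IDO1 on day 0 had medians of 372.7 CPM in COMBO, 217.8 CPM in AAC and 255.4 CPM in INR, with a log2 fold change of -0.70 (SE 0.28) for AAC over COMBO. GBP5 had -1.25 (SE 0.40) and GBP4 -1.09 (SE 0.45) in that comparison, with the highest COMBO values again those of animals 18 and 54. Without animal 16, whose GBP5 of 10.4 CPM was the lowest in COMBO, 4 comparisons were called, GBP4, GBP5 and IDO1 for AAC against COMBO and GBP5 for COMBO against INR, all on day 0. Without AAC animal 41, 1 was called, GBP5 for AAC against COMBO at -1.43. The shares of all genes called in these fits are not given here, so nothing about the members is read from these calls. By day 60 the GBP5 medians were 14.8, 13.1 and 19.7 CPM in AAC, COMBO and INR.

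The highest GBP5 libraries were also the highest in type I interferon-stimulated genes. The summed CPM of 14 such genes (ISG15, MX1, RSAD2 and others of the antiviral response) ran from 807.8 through a median of 2174 to 25114 CPM. The 5 libraries with the most GBP5 were COMBO animals 18 on day 0, 16 on day 13, 54 on day 0 and 18 on day 45, and INR animal 43 on day 0, and these held ranks 1, 2, 3, 4 and 5 in the type I sum, at 25114, 20209, 19990, 15206 and 14660 CPM. GBP5 in them was 182.6, 112.9, 89.8, 86.5 and 80.2 CPM. IFNG was at 0 in animal 16 on day 13, in animal 54 on day 0 and in animal 18 on day 45, 3 of these 5 libraries. INR animal 43 on day 0 also had the highest neutrophil sum of all libraries, 4395 CPM, whose part in its GBP5 level was not tested.

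Other high libraries stood lower in the type I sum. The sixth GBP5 library, INR animal 23 on day 45 at 76.3 CPM, was rank 34 with 3539 CPM, and the same library had the highest IRF1 level, 993.5 CPM. AAC animal 31 on day 45, with GBP4 at 130.8 CPM and IRF1 at 856.6 CPM, was rank 65 with 2174 CPM, the median. INR animal 7, labelled No, on day 28 had IRF1 at 847.0 CPM and rank 66. High IRF1 and high GBP4 were thus seen both with and without a high type I sum.

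**Figure D3:**
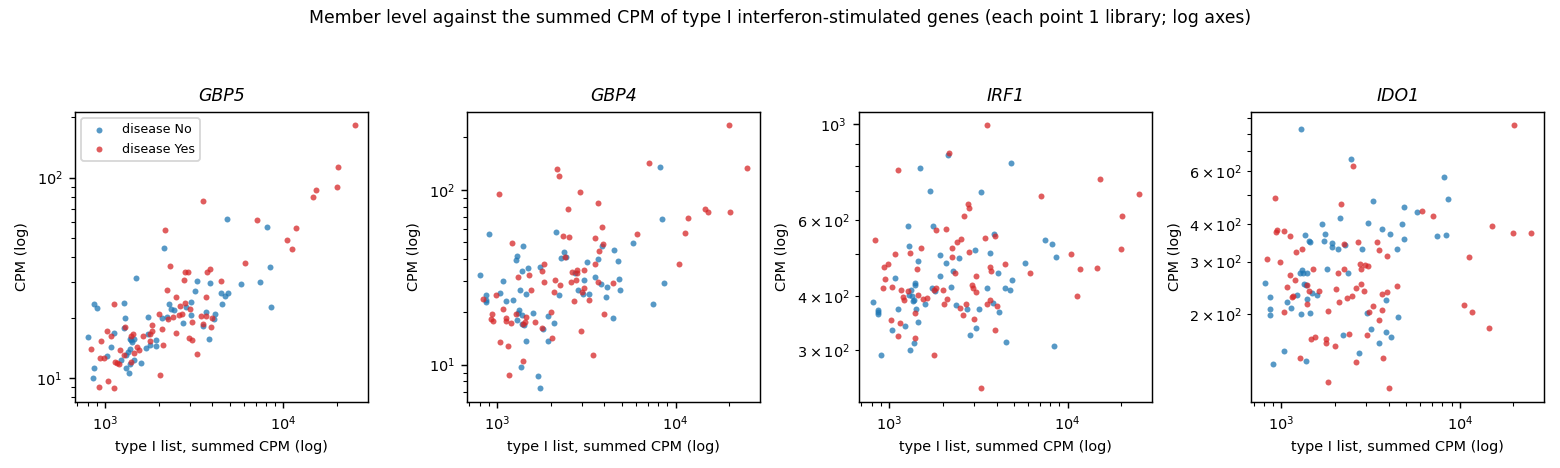
CPM of GBP5, GBP4, IRF1 and IDO1 in each of the 59 No and 70 Yes libraries (points) against the summed CPM of 14 type I interferon-stimulated genes, both axes on a log scale. GBP5 climbs with the sum (r = 0.81), GBP4 less tightly (r = 0.56), and IRF1 and IDO1 spread widely at any sum (r = 0.27 and 0.23).

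Across the 59 No and 70 Yes libraries, which share animals, depth and days, Pearson's r of log2 CPM with the type I sum was 0.81 for GBP5, 0.56 for GBP4, 0.27 for IRF1, 0.23 for IDO1 and -0.35 for IFNG. Among the members, GBP4 and GBP5 had r = 0.71 and GBP5 and IRF1 r = 0.55. IDO1 went with SOCS1 at 0.48 and with IRF1 at 0.43. IFNG had r = -0.35 with GBP5 and -0.23 with GBP4, and no r above 0.17 with any other member. With the summed cell type markers, SOCS1 had r = 0.57 with neutrophil genes, IDO1 0.51 with natural killer and cytotoxic genes, and IFNG 0.41 with natural killer and cytotoxic and 0.39 with monocyte genes. These describe the libraries, and the part of cell composition in the levels was not tested.

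**Figure D4:**
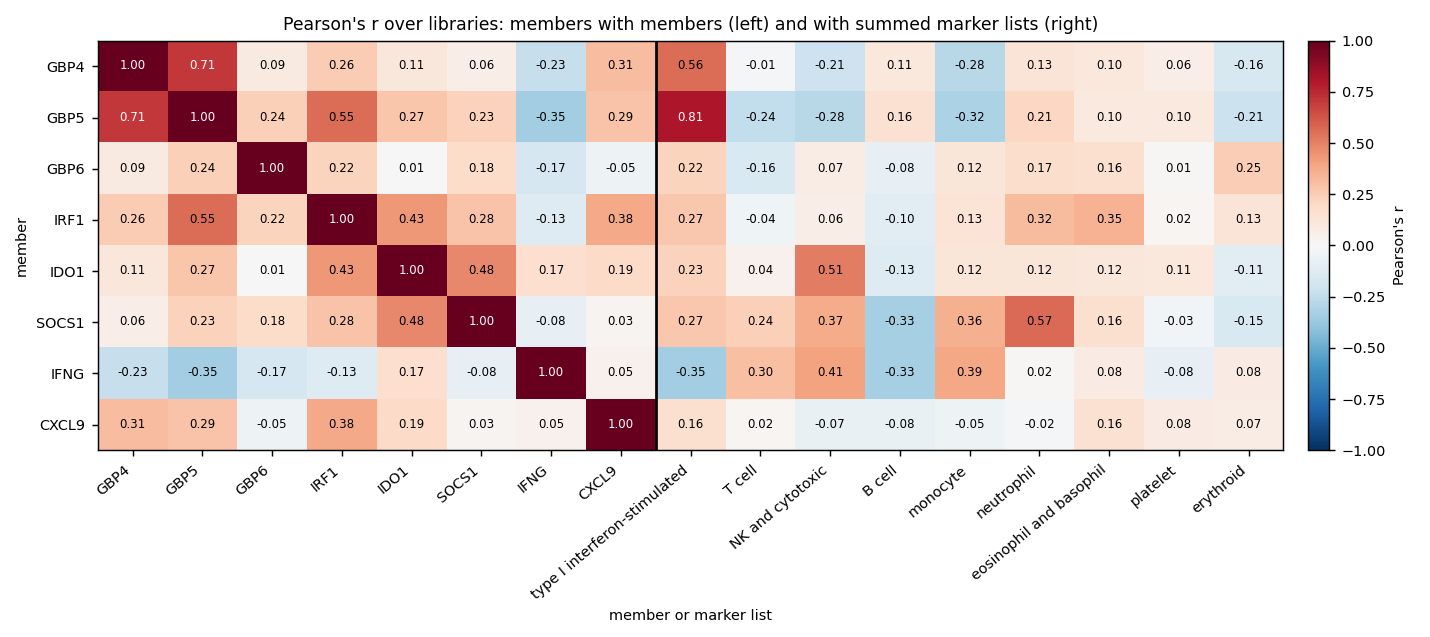
Pearson's r of log2 CPM over the 59 No and 70 Yes libraries between the 8 genes (left) and between each gene and the summed marker lists (right), coloured from negative to positive. GBP5 and the type I list share the highest value, 0.81, and the IFNG row is negative against GBP5 (-0.35).

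Genes with a pattern close to the mean of the 8 members, by the rule of highest r, included LOC512486 (r = 0.79), RNF19B (0.77), WARS (0.77), LOC511531 (0.74), LOC513659 (0.73), NLRC5 (0.71), LAP3 (0.70) and DLGAP4 (0.70), over the same 59 No and 70 Yes libraries. Of the 18929 other genes, 1.09% had r of 0.5 or more, and the median r was -0.02. WARS is a tryptophanyl-tRNA synthetase and NLRC5 a regulator of MHC class I genes, and both stand in the pathway list below. LOC511531 and LOC513659 lie 9 and 5 genes from GBP4 or GBP5 in the RefSeq gene order of the ARS-UCD2.0 assembly, so reads of near-identical copies may be shared among them.

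Other genes of the pathway were taken from a list of 45, of which 42 were in the table and 40 passed the filter. They cover the receptor and its signalling (7 tested), the induction of interferon-gamma (10), the response (19) and feedback (4). Over days 0 to 13, 4 rose and 6 fell, beside 21.1% of all genes called. IL12B, a subunit of the cytokine that drives interferon-gamma production, fell by 1.09 on the log2 scale (edgeR FDR 0.000188), from 4.33 ± 2.75 to 2.02 ± 0.871 CPM (mean ± SD, 26 and 25 libraries). FCGR1A, a high-affinity antibody receptor of monocytes, fell by 0.97 (edgeR FDR 0.00692) and UBE2L6, the enzyme that conjugates ISG15, by 0.48 (edgeR FDR 0.0317). The receptor chain IFNGR1 fell by 0.24 (edgeR FDR 0.0383), and SOCS3 and PIAS1, feedback inhibitors, were the other 2 that fell. PTPN2, a phosphatase that acts on JAK kinases, rose by 0.13 on the log2 scale (edgeR FDR 0.00515), and CD40, SERPING1 and APOL3 were the other 3 that rose. The falls of FCGR1A and IL12B stood beside the lower monocyte and neutrophil markers given above.

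Over days 28 to 45, 6 pathway genes rose and 2 fell, beside 13.7% of all genes called, at the step where IRF1 was higher. SOCS3 rose by 0.52 on the log2 scale (edgeR FDR 0.00244), from 109.2 ± 33.6 to 155.9 ± 66.2 CPM (mean ± SD over 26 libraries each). The kinases JAK2, by 0.25 (edgeR FDR 0.0155), and JAK1, by 0.11 (edgeR FDR 0.0382), rose as well, as did PIAS1, IL15 and WARS. PTPN2 fell by 0.11 on the log2 scale (edgeR FDR 0.0249). IL18BP, which binds and neutralises interleukin-18, fell by 1.47 (edgeR FDR 0.0649) from a level near the floor. Over days 45 to 60, WARS fell by 0.31 (edgeR FDR 0.0873) and CXCL10, a chemokine of the same receptor as CXCL9, by 0.86 (edgeR FDR 0.0926), from 19.6 ± 15.5 to 11.05 ± 4.76 CPM. Between days 13 and 28 no pathway gene was called by edgeR, and 1 of 40 had an unadjusted p under 0.05, beside 1266 of all 18937 genes.

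Between labels, edgeR called no pathway gene in 200 comparisons, of which 19 had an unadjusted p under 0.05, 10 of them on day 0. Over all genes on day 0, 1347 of 18937 had an unadjusted edgeR p under 0.05. Limma voom and DESeq2 called 0 of the 200 as well. In 160 comparisons of the day steps between labels edgeR called 0, with 3 at an unadjusted p under 0.05, and limma voom and DESeq2 also called 0. All 3 were at the step from day 0 to day 13, where 324 of all 18937 genes had an unadjusted edgeR p under 0.05. Between supplements edgeR called 1 of 600, DESeq2 7 and limma voom, with its estimated correlation within animals, 0. Of the 7, 6 were for AAC against COMBO on day 0, where DESeq2 called 426 of 17085 genes. The other 1 was for COMBO against INR on day 0, where it called 78 of 18915. The 1 called by edgeR was WARS on day 0, which was lower in AAC (410.6 ± 58.1 CPM) than in COMBO (629.3 ± 203.9 CPM), with a log2 fold change of -0.63 (SE 0.17, edgeR FDR 0.0848). No marker gene of any cell type list was called between labels or supplements on any day.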

How the data were processed

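RNA from Tempus tubes was made into Illumina Stranded mRNA libraries and sequenced in pairs. By the submitters' processing notes the authors used FastQC 0.11.9, Trimmomatic 0.39, HISAT2 2.1.1 and StringTie 2.2.0, with reads aligned to the ARS-UCD1.3 assembly and gene counts derived from transcript coverage. The deposited values are raw counts per gene for each library. The authors removed 1 library before deposit. CPM was computed here from TMM-scaled library sizes (edgeR 4.0.16, R 4.3.3).

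The members and gene lists were chosen with earlier results of these data known. GBP4, IDO1 and SOCS1 also appear in the study's own gene lists from these samples. In cattle free of disease, the paper lists GBP4 among the genes behind its AAC and INR differences on day 45. The supplement comparisons above average both labels. In animals labelled No on day 45, the GBP4 median was 27.6 CPM in AAC and 43.8 CPM in INR, where animal 50 had 134.6 CPM, and the ranges overlapped. A fit of only animals labelled No called 0 of 18269 genes for AAC against INR on that day. That fit does not repeat the paper's method, which matched calls of edgeR with those of a model with animal and pen as random effects. Genes were filtered with filterByExpr over the 30 combinations of supplement, label and day, which left 18937, and 1 mean per combination was fitted with a common dispersion (0.152, a biological coefficient of variation of 39.0%) and the quasi-likelihood test. Day and label contrasts averaged the combinations. P-values were adjusted by the Benjamini-Hochberg method over all genes, with calls at an FDR below 0.10. The named genes were the 9 members and, per contrast, pathway genes past the threshold in order of FDR.

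The fit treats libraries as independent although each animal gave up to 5. Deviations from the group means had a median correlation of 0.371 within an animal and -0.0101 across animals, above 0.1 for 26 of 26 animals, and fits with the animal as a block (same individual in the labels) were run. No pair of libraries agreed within sampling noise. The test was checked on simulated data drawn with a common dispersion and no correlation within animals, so that check does not cover the repeated draws. Alternatives used RLE size factors, trended dispersion, other filters, limma voom (limma 3.58.1), DESeq2 1.42.0, subsets of animals and pens, and each animal left out. A further fit left out INR animal 40 on day 60, by the paper the library with the lowest RNA integrity. Over all genes, it took those at an unadjusted edgeR p under 0.05 on day 60 from 1241 to 2331 for COMBO against INR. For AAC against INR that number went from 1111 to 1745. No sequence is shown. Some genes of the lists are counted and not reported here by name. CPM is not scaled by gene length, so levels were not compared between genes.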

Additional observations from a re-analysis of the deposited data

Results flagged for a closer look

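In 192 groups of 4 to 7 libraries (1 gene, supplement, label and day each), the highest or lowest library stood apart from the rest in 20, from 11 animals. A rate of about 1 in 20 groups by chance would hold only for normally distributed, independent values. CPM is skewed and the same animals recur, so the count is not set against that rate. Groups of 3 libraries, the COMBO Yes animals on every day and AAC No on day 13, were not examined. All values are CPM.

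GBP4 was high in AAC animal 31, labelled Yes, at 119.5 on day 28 (others 20.8 to 31.5) and 130.8 on day 45 (others 17.8 to 23.8). It was high in INR animal 29, labelled Yes, at 97.3 on day 28 (others 17.38 to 37.6) and 142.4 on day 45 (others 15.6 to 53.303). GBP5 was 23.6 in AAC animal 21 on day 13, where the other Yes animals had 16.5 to 16.8. GBP6 was 0.694 in INR animal 39 on day 45 (others 0.0185 to 0.161).

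IRF1 was low in AAC animal 41, labelled Yes, on day 28, at 416.6 (others 491.6 to 503.7). It was high in COMBO animal 57, labelled No, on day 13, at 696.8 (others 337.1 to 373.0), and in INR animal 39, labelled Yes, on day 28, at 652.2 (others 354.6 to 424.6). IDO1 was high in AAC animal 34, labelled No, at 232.0 on day 28 (others 136.6 to 151.3) and 398.8 on day 60 (others 199.0 to 219.2), and in COMBO animal 42, labelled No, on day 60, at 829.8 (others 274.3 to 369.0).

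IFNG was 0.513 in INR animal 50, labelled No, on day 28 (others 0.0645 to 0.134). SOCS1 was 8.07 in COMBO animal 3, labelled No, on day 28 (others 7.57 to 7.64) and 19.8 in INR animal 40, labelled Yes, on day 28 (others 3.97 to 9.05). CXCL9, at or near the floor, was 0.0648 on day 0 and 0.0406 on day 60 in AAC animal 34, 0.0807 in COMBO animals 3 on day 28 and 42 on day 60, where the other animals were at 0, and 0.0800 in AAC animal 41 on day 28 (others 0.133 to 0.143).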

How the results depend on the processing

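Of 32 member comparisons between days, 4 were called; limma voom and the fit with the animal as a block each called 7, and leaving out 1 animal at a time gave 2 (without COMBO animal 18) to 8 (without COMBO animal 16). Between labels 0 of 40 were called, and 0 to 2 with 1 animal left out; the 2, GBP5 and GBP6 on day 0, came without animal 16. The day steps between labels gave 0 in every such fit. Between supplements 0 were called, 2 in animals labelled Yes only (GBP4 and GBP5 for AAC against COMBO on day 0), 1 with DESeq2 (GBP5 in the same comparison) and 0 to 4 with 1 animal left out. Over all genes, that comparison gave 2382 calls of 18477 in animals labelled Yes only and 426 of 17085 with DESeq2, so the member calls are not particular to this set. Pathway genes called between days numbered 20, 13 at an FDR below 0.05, 30 with the animal as a block and 14 to 23 with 1 animal left out. Between labels they numbered 0, 3 in pens with both labels (IFNGR1, SOCS3 and TBX21 on day 0) and 0 to 3 with 1 animal left out, the 3 without animal 16, all on day 0. In pens with both labels, 666 of all 18554 genes were called on day 0. With COMBO left out, a fit added after seeing the data, 0 members and 0 pathway genes were called between labels. The cause of these differences was not tested. For the fits with 1 animal left out, the shares of all genes called are not given here. Their counts are therefore not read as results about these genes. Over all genes, the animal as a block raised the calls at the 4 day steps from 3995, 31, 2601 and 314 to 6507, 196, 5237 and 1556, and paired calls between labels could not be fitted because each animal has 1 label. Between labels, edgeR called 3, 0, 1, 0 and 1 of all genes from day 0 to day 60 and DESeq2 98, 36, 40, 31 and 30, with no member among them. No called value changed sign.

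With each animal left out in turn, GBP6 on day 60 was called in 25 of 26 fits and IRF1 on day 60 in 20, counts that describe the fits and support nothing, since the members were selected on these levels. GBP6 did not pass the stricter filter on low counts, and the DESeq2 fit did not call it. Depth limits IFNG, CXCL9 and GBP6 most, whose median counts of 9, 3 and 5 are the lowest of the 8 genes.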
